A study of Mus musculus with 4 samples.

Results

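The genes followed here were Sfrp1, Sfrp2, Sfrp4, Frzb, Dkk2, Dkk3, Wif1, Apcdd1 and Notum. They encode proteins that act on Wnt signals outside the cell or at its surface. They were taken by symbol from the deposited gene table, and all 9 members were found among its 22222 genes. The mice carried keratoacanthomas, skin tumours known for regressing without treatment, which a 20-week course of the chemical carcinogen DMBA had produced. The 2 on-DMBA libraries come from tumours collected while DMBA was still given (0 weeks after DMBA), and the 2 libraries at 1 week come from tumours of mice kept without DMBA for 1 week. Each library is from a different mouse by its identifier, and the RNA is from cells that carried both the Tomato reporter and P-cadherin in the sort, labelled epithelial. The labels name neither the strain, age and sex of the mice nor the driver of the reporter. As the study's title is about Wnt and retinoic acid in regression, the comparison asks how the transcripts of these Wnt regulators differed once DMBA was stopped.

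Wnt proteins are lipid-modified ligands that bind Frizzled receptors together with the coreceptors LRP5 and LRP6, which stabilises beta-catenin in the canonical pathway. Secreted proteins set how much ligand reaches the receptors. The secreted frizzled-related proteins (Sfrp1, Sfrp2, Sfrp4 and Frzb, also called Sfrp3) carry a Frizzled-like cysteine-rich domain that binds Wnt, Wif1 binds Wnt through its own WIF domain, Dickkopf proteins such as Dkk2 bind LRP5 and LRP6, Apcdd1 is a membrane glycoprotein that interacts with Wnt and LRP5, and Notum is an esterase that removes the lipid from Wnt. In skin, Wnt signalling is known for its part in hair follicle formation and cycling, and several of these regulators are made by dermal as well as epidermal cells.

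With all 4 libraries, 5 of the 9 genes (Sfrp2, Sfrp4, Dkk2, Dkk3 and Apcdd1) had both 1-week libraries above both on-DMBA libraries, and 0 had them below. The largest difference was in Sfrp2, with a mean of 80.3 at 1 week against 2.75 on DMBA. Over all 15419 genes tested, 14.0% were higher at 1 week without overlap of the groups and 9.14% were lower. None of the 9 genes passed in limma, which called 0% of all genes at an adjusted p under 0.05, and 4 (Sfrp2, Sfrp4, Dkk2 and Apcdd1) had an unadjusted p under 0.05 with a higher level at 1 week, against 2.28% of all genes. In edgeR on recovered reads 3 of the 9 (the same without Sfrp4) had an unadjusted p under 0.05 with a higher level, against 1.49% of all genes. The genes were chosen with earlier results of these libraries known, so these shares describe the genes and are no independent support. An exact two-sided permutation test of 2 against 2 libraries cannot give a p under 0.33. Levels are scaled CPM, meaning reads of a gene divided by a library size that the authors had scaled, given as replicate 1 then replicate 2. Differences are log2 differences on the scale log2(scaled CPM + 0.5), 1 week minus on DMBA. On this scale a change in a low gene comes out too small.

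The libraries differed in which cells' transcripts they held, and this touches every result that follows. Recovered reads per library ranged from 5551937 to 9678682. The summed level of 10 epithelial markers, led by the basal keratin gene Krt14, was 46470.1 and 549.9 under DMBA, against 4492 and 3510.4 at 1 week. The summed level of 8 fibroblast markers, led by the collagen gene Col3a1, was 162 and 40826 under DMBA, against 46112 and 48799.9 at 1 week. Thus on-DMBA replicate 1 was the library with the highest epithelial and lowest fibroblast level, and on-DMBA replicate 2 had the lowest epithelial level. Fibroblast markers summed to more than epithelial markers in on-DMBA replicate 2 and in both 1-week libraries, against the epithelial label of all 3. Cdh3, which encodes the P-cadherin used in the sort, was at 325 and 3.23 under DMBA, against 42.8 and 30.4 at 1 week. The endothelial markers (5 genes, led by Pecam1) summed to 4.87 and 139 under DMBA, against 454 and 932 at 1 week, and the pericyte and smooth muscle markers (6 genes, led by Acta2) to 105 and 229.5 under DMBA, against 776 and 1429 at 1 week. All 5 and all 6 of them were higher at 1 week without overlap, as were 3 of 3 tested melanocyte markers (led by Dct, summed level 3.8 and 8.26 on DMBA, 35.6 and 35.5 at 1 week). The T cell markers (led by Cd3g, summed level 0.712 and 2.69 on DMBA, 5.16 and 16.8 at 1 week) include Cd3d and Cd3g, which reached the filter of 1 scaled CPM only at 1 week, so no count is read from them. Of the fibroblast markers 4 of 8 were higher at 1 week without overlap, and of the epithelial markers 0 of 10, beside 14.0% of all genes tested. The myeloid markers (6 genes, led by Lyz2) summed to 9.14 and 13259 under DMBA, against 5175 and 9719.8 at 1 week, with 0 of 6 higher without overlap. No marker of these lists was at 0 in any library. In RNA from many cells, fewer cells of a type and less RNA per cell cannot be told apart, and the part of these markers in the results on the Wnt regulators was not tested.

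**Figure D1:**
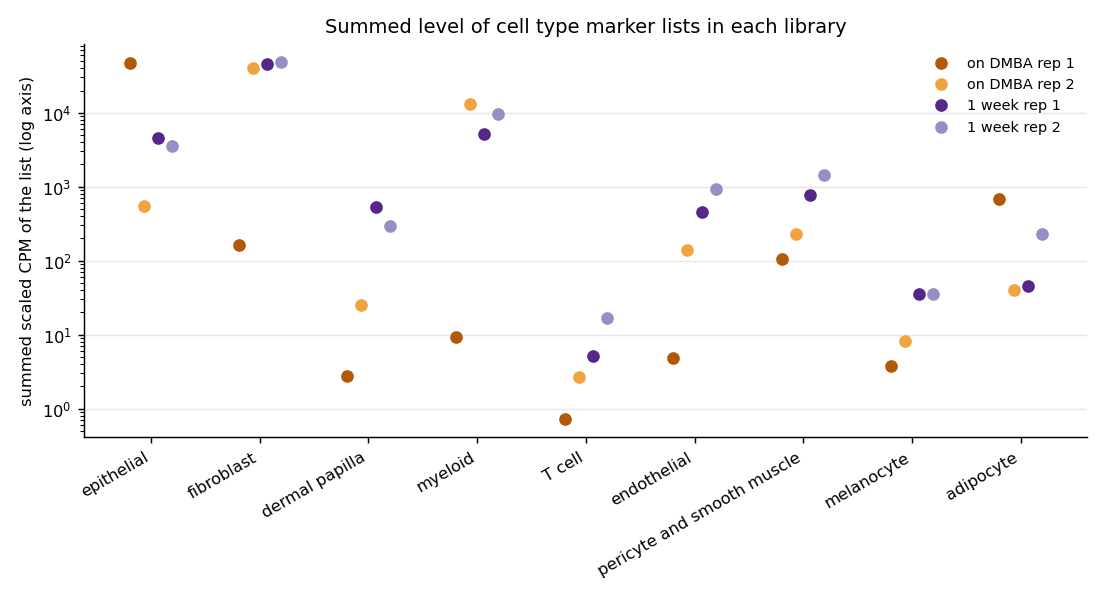
Summed scaled CPM (log axis) of 9 lists of cell type markers, 1 point per library. On-DMBA replicate 1 has the highest epithelial sum (46470.1) and the lowest fibroblast sum (162), while on-DMBA replicate 2 is close to the 1-week libraries in fibroblast markers (40826 against 46112 and 48799.9) and lower in endothelial markers (139 against 454 and 932).

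Among the frizzled-related proteins, Sfrp2 had the largest difference of the 9 genes. Its level was 0.831 and 4.67 under DMBA, against 93.1 and 67.5 at 1 week, from 7, 26, 596 and 473 reads. Both 1-week libraries were far above both on-DMBA libraries, and the lower of them was still above the higher on-DMBA value by 14.5-fold (95% interval 9.74 to 22.4, from exact binomial limits on the reads). The log2 difference was 4.93 (SE 0.84, unadjusted p = 0.00174, adjusted p = 1 in limma). On the recovered reads DESeq2 called Sfrp2 higher (log2 difference 4.88, adjusted p = 0.00537), where it called 0.104% of all genes higher, and edgeR did not (4.92, unadjusted p = 0.00481, adjusted p = 1). Intervals from reads cover counting error only and compare libraries, not conditions.

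Sfrp4, a less abundant relative of Sfrp2, was at 0.119 and 1.97 under DMBA, against 8.75 and 12.1 at 1 week. These values came from 1, 11, 56 and 85 reads, so the first is under the floor of 3 reads (0.356 scaled CPM in that library). Against on-DMBA replicate 2 the 1-week libraries were 4.43-fold (interval 2.3 to 9.38) and 6.14-fold (3.26 to 12.8) higher. The log2 difference was 3.13 (SE 0.93, unadjusted p = 0.0184, adjusted p = 1 in limma).

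Sfrp1 and Frzb did not separate the groups, and each had 1 on-DMBA library apart from the other 3. For Sfrp1 the levels were 83.2 and 24.6 under DMBA, against 82.4 and 85.9 at 1 week, with on-DMBA replicate 2 alone low. That library was also the one with the lowest epithelial markers. Among the other libraries the summed epithelial level ran from 3510.4 to 46470.1, while Sfrp1 stayed between 82.4 and 85.9. Whether these levels are linked was not tested. The log2 difference of Sfrp1 was 0.88 (SE 0.71), which was 1.75 without on-DMBA replicate 1 and 0.01 when on-DMBA replicate 2 was left out. For Frzb the levels were 0.119 and 9.51 under DMBA, against 10.5 and 8.56 at 1 week, with on-DMBA replicate 1 alone low at 1 read. That library was also the one with the lowest summed level of fibroblast, dermal papilla, myeloid, T cell, endothelial, pericyte and smooth muscle, and melanocyte markers. Whether Frzb is linked to any of these lists was not tested. The log2 difference of Frzb was 2.00 (SE 1.41), and it was -0.01 without on-DMBA replicate 1 but 4.01 when on-DMBA replicate 2 was left out.

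Wif1, the secreted WIF domain inhibitor, followed neither group. It was at 2.37 and 17.2 under DMBA, against 7.66 and 15.4 at 1 week, so that the highest and the lowest library were both on DMBA. Its log2 difference was 0.67 (SE 1.06), with -0.64 when on-DMBA replicate 1 was left out and 1.99 when on-DMBA replicate 2 was.

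**Figure D2:**
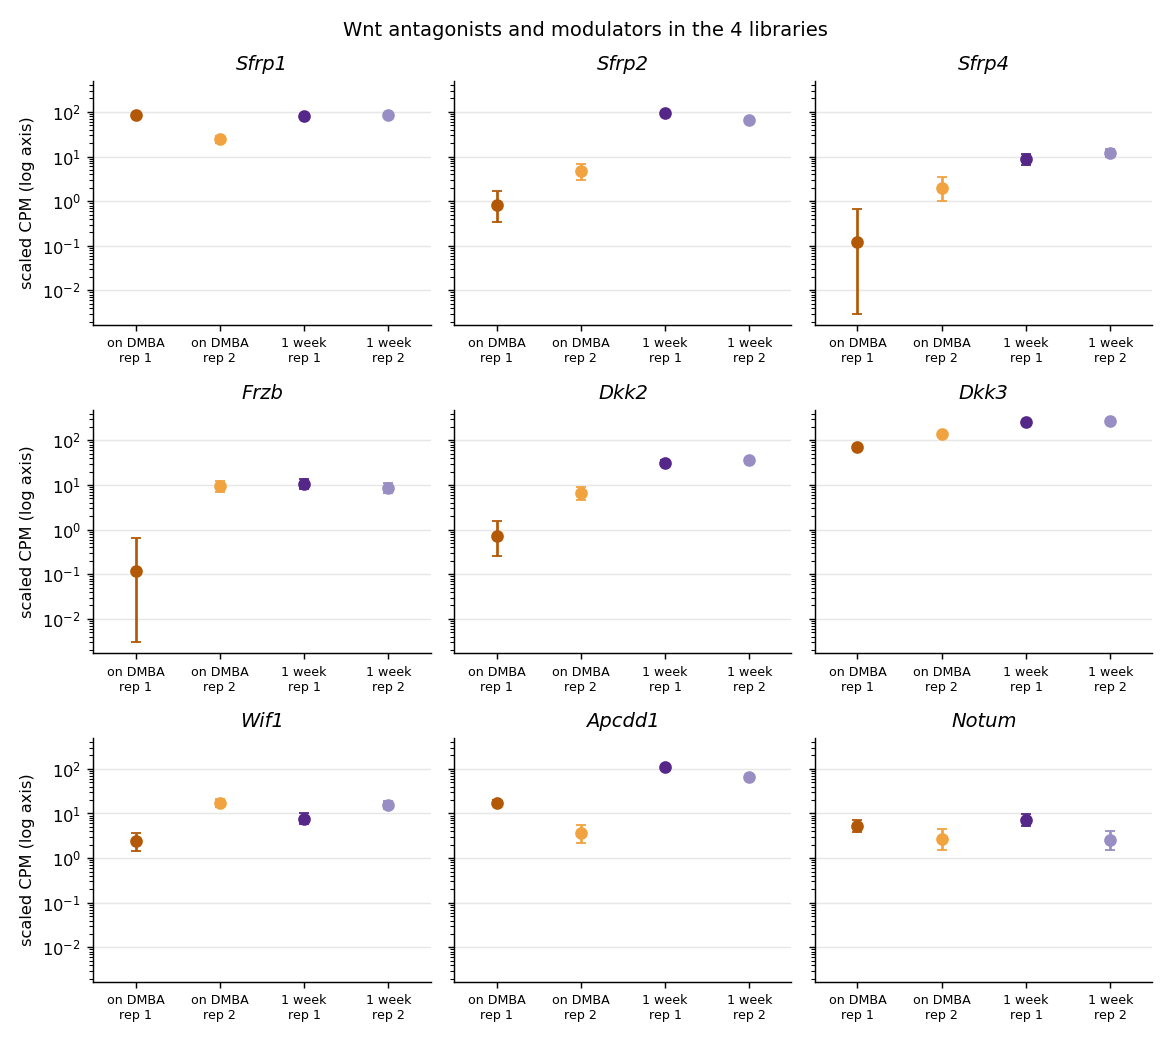
Level of each of the 9 genes in scaled CPM (log axis) in the 4 libraries, with bars for the 95% Poisson interval of the reads (counting error only). Sfrp2, Sfrp4, Dkk2, Dkk3 and Apcdd1 have both 1-week libraries above both on-DMBA libraries, while Frzb is low in on-DMBA replicate 1 alone and Sfrp1 in on-DMBA replicate 2 alone.

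The Dickkopf genes Dkk2 and Dkk3 were both higher at 1 week without overlap. Dkk2, whose product binds LRP6 and can block or, in some settings, weakly activate it, was at 0.712 and 6.46 under DMBA, against 31.6 and 36.2 at 1 week, from 6, 36, 202 and 254 reads. The lowest 1-week value was 4.89-fold (interval 3.41 to 7.17) above the highest on-DMBA value. The log2 difference of Dkk2 was 3.56 (SE 0.99, unadjusted p = 0.0142, adjusted p = 1 in limma). Dkk3, a divergent Dickkopf that does not act as a typical LRP6 inhibitor, was at 72.9 and 138 under DMBA, against 263 and 266 at 1 week. Its 1-week libraries differed from each other by little, and were 1.9-fold (1.75 to 2.07) and 1.92-fold (1.77 to 2.1) above on-DMBA replicate 2. The log2 difference of Dkk3 was 1.39 (SE 0.57, unadjusted p = 0.0555, adjusted p = 1 in limma), smaller than that of Dkk2 and with less spread between libraries.

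Promoters are shown for Sfrp2 and Dkk2, the 2 genes higher at 1 week without overlap for which a start site window was at hand. Windows of 250 bases before to 50 after the start were matched by symbol for 4 of the 9 genes (Sfrp2, Dkk2, Frzb and Wif1) in RefSeq on GRCm38.p6. Both printed windows are on the + strand, at chr3:83766071-83766370 for Sfrp2 and chr3:132085042-132085341 for Dkk2, and capitals mark a match to a motif searched.
Sfrp2: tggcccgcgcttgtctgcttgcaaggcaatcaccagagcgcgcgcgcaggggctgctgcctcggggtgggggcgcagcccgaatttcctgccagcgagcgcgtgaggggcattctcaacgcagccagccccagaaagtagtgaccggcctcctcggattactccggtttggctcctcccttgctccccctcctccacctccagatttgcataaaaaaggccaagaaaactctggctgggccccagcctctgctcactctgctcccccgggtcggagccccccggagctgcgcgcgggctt
Dkk2: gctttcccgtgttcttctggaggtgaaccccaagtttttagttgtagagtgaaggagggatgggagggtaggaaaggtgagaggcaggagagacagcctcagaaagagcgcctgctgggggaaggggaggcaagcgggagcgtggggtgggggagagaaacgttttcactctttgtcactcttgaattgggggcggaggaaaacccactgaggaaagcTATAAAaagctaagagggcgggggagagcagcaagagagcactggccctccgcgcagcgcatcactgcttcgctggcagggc
Both strands were searched for the TCF/LEF core CTTTGAT (3.73% of 32851 windows of this length hold it), its variant CTTTGTT (5.85%), the nuclear receptor half-sites AGGTCA (16.3%) and GGGTCA (13.7%) and the TATA box TATAAA (13.6%). No TCF/LEF match was found in the 4 windows. Dkk2 held 1 TATA box match, Frzb 1 AGGTCA match, Wif1 1 GGGTCA and 1 TATA box match, and Sfrp2 none of the 5 motifs. The GC content was 66% for Sfrp2 and 57.7% for Dkk2, beside a median of 52.7% over all windows. A match describes letters in the window, and the absence of one says nothing of binding elsewhere.

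Apcdd1, the membrane-bound inhibitor, differed from the other higher genes in which on-DMBA library was lowest. It was at 17.1 and 3.59 under DMBA, against 108 and 66.5 at 1 week, from 144, 20, 691 and 466 reads. On-DMBA replicate 2 was the lowest, whereas Sfrp2, Sfrp4, Dkk2 and Dkk3 were lowest in on-DMBA replicate 1. The 1-week libraries were 6.32-fold (5.27 to 7.61) and 3.89-fold (3.22 to 4.72) above on-DMBA replicate 1, and 30.1-fold (19.3 to 49.6) and 18.5-fold (11.9 to 30.6) above on-DMBA replicate 2. The log2 difference was 3.33 (SE 0.85, unadjusted p = 0.0103, adjusted p = 1 in limma). Notum, the Wnt deacylase, was low throughout at 5.22 and 2.69 under DMBA, against 7.19 and 2.57 at 1 week. Its groups overlapped, with a higher and a lower library in each, and its log2 difference was 0.18 (SE 0.83).

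**Figure D3:**
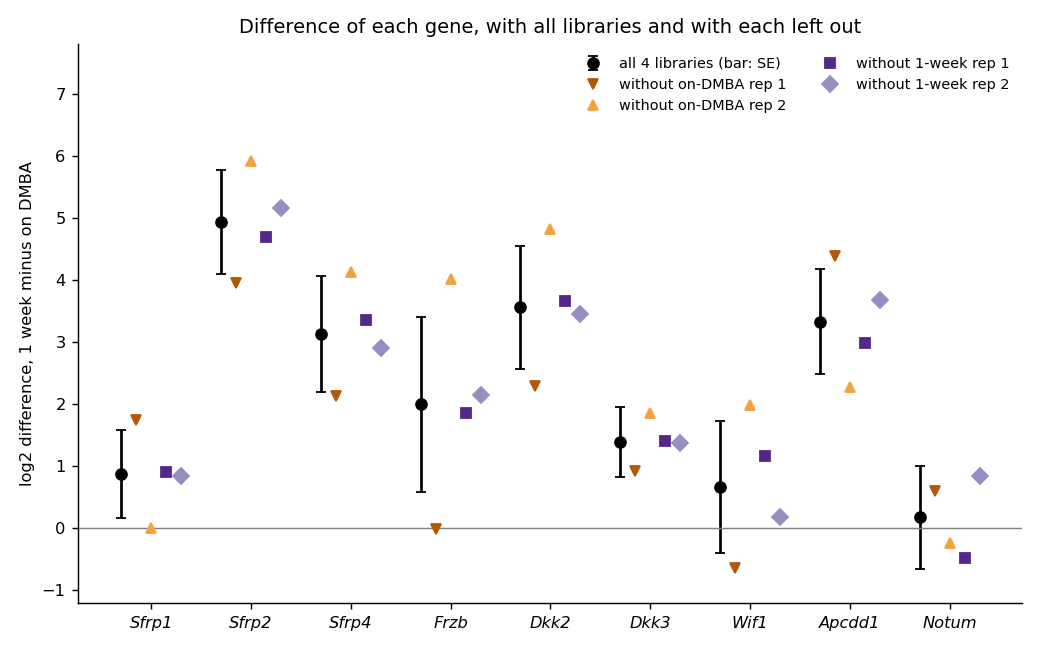
Log2 difference of each gene, 1 week minus on DMBA, with all 4 libraries (black, bar for the SE in limma) and with each library left out (coloured). Sfrp2 lies between 3.95 and 5.91 in these fits and Apcdd1 between 2.28 and 4.38, whereas Frzb and Wif1 go from -0.01 and -0.64 without on-DMBA replicate 1 to 4.01 and 1.99 without on-DMBA replicate 2.

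How many of the genes passed changed when either on-DMBA library was left out. Without on-DMBA replicate 1, limma called 4 of the 9 higher at 1 week, where it called 2.35% of all genes higher. These were Apcdd1 (log2 difference 4.38, adjusted p = 1.68e-12), Sfrp2 (3.95, adjusted p = 4.06e-10), Dkk2 (2.30, adjusted p = 0.00161) and Sfrp4 (2.13, adjusted p = 0.0347), while Sfrp1 was at 1.75 with an adjusted p of 0.0509. Without on-DMBA replicate 2, where 14.3% of all genes were called higher, these 4 genes passed again, and Frzb, Dkk3 and Wif1 passed with them. The log2 differences were then 5.91 for Sfrp2, 4.82 for Dkk2, 4.13 for Sfrp4, 4.01 for Frzb, 2.28 for Apcdd1, 1.99 for Wif1 and 1.85 for Dkk3. In both fits the lone on-DMBA library was assumed to vary like the 1-week libraries, and with all 4 libraries none passed in limma without a replicate block. The median log2 difference of the 9 genes was 2.00 with all libraries, 1.75 when on-DMBA replicate 1 was left out and 2.28 when on-DMBA replicate 2 was, beside medians over all genes of -0.02, 0.04 and -0.06.

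Set against fibroblast markers in the same library, 6 of the 9 genes were above their on-DMBA replicate 2 value in both 1-week libraries, and Wif1 was below it in both. The geometric mean of the 8 fibroblast markers was 6.88 and 984 under DMBA, against 992 and 1235 at 1 week, so only on-DMBA replicate 2 had a fibroblast level near that of the 1-week libraries. On this scale 0.5 was added to each gene and marker level, which weighs most in low genes. Per 1000 units of the fibroblast mean, Sfrp2 was at 5.25 in on-DMBA replicate 2 and at 94.4 and 55 in the 1-week libraries. These were thus 18-fold and 10.5-fold higher. Apcdd1 was 26.3-fold and 13-fold higher on this scale, Dkk2 4.57-fold and 4.2-fold, Sfrp4 3.71-fold and 4.06-fold, Sfrp1 3.28-fold and 2.74-fold and Dkk3 1.88-fold and 1.53-fold. Frzb was at 1.09 and 0.72 times its on-DMBA replicate 2 value, and Wif1 at 0.457 and 0.714 times. Notum went both ways, at 2.39 and 0.765 times. Against on-DMBA replicate 1 the direction was the opposite: all 9 genes were lower in both 1-week libraries on this scale (Sfrp2 at 194 per 1000 units, Apcdd1 at 2559 and Sfrp1 at 12174 in that library), where the fibroblast mean was 6.88. Sfrp4 and Frzb, at 1 read each in on-DMBA replicate 1, owe most of their value of 90 there to the added 0.5. With all 4 libraries the median log2 difference of the 9 genes relative to fibroblast markers was -1.75. In pattern over the 4 libraries, fibroblast markers were neither the nearest nor the second nearest marker list to any of the 9 genes. Whether this scale corrects for cell content was not tested.

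Other marker lists did differ between on-DMBA replicate 2 and the 1-week libraries. Their geometric means in the 1-week libraries were 3.09 and 6.61 times that of on-DMBA replicate 2 for endothelial markers, 3.11 and 5.92 times for pericyte and smooth muscle markers and 8.44 and 7.93 times for epithelial markers. The folds of Dkk2 (4.89 and 5.61) and Sfrp4 (4.43 and 6.14) over on-DMBA replicate 2 were above both the endothelial and the pericyte folds in 1-week replicate 1. In 1-week replicate 2 Dkk2 was below both of these folds, and Sfrp4 lay between them. The folds of Sfrp2 (20 and 14.5) and Apcdd1 (30.1 and 18.5) were above the geometric means of all 3 lists, but not above every single marker in them. Among the epithelial genes, Epcam was at 1.44 in on-DMBA replicate 2 and at 26.6 and 115 at 1 week, while Itga6 was at 206 and then 269.6 and 292. Single markers of a list went both ways against on-DMBA replicate 2. Among the fibroblast genes, Dpt was at 14.5 there and at 138 and 207 in the 1-week libraries, while Mfap5 was at 219.9 and then 30.5 and 60.9. Among the dermal papilla markers, the retinoic acid binding protein gene Crabp1 was at 9.33 and then 515 and 282, while Fgf10 was at 5.56 and then 3.59 and 2.14. The comparison with on-DMBA replicate 2 rests on 1 library and has no test across conditions.

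**Figure D4:**
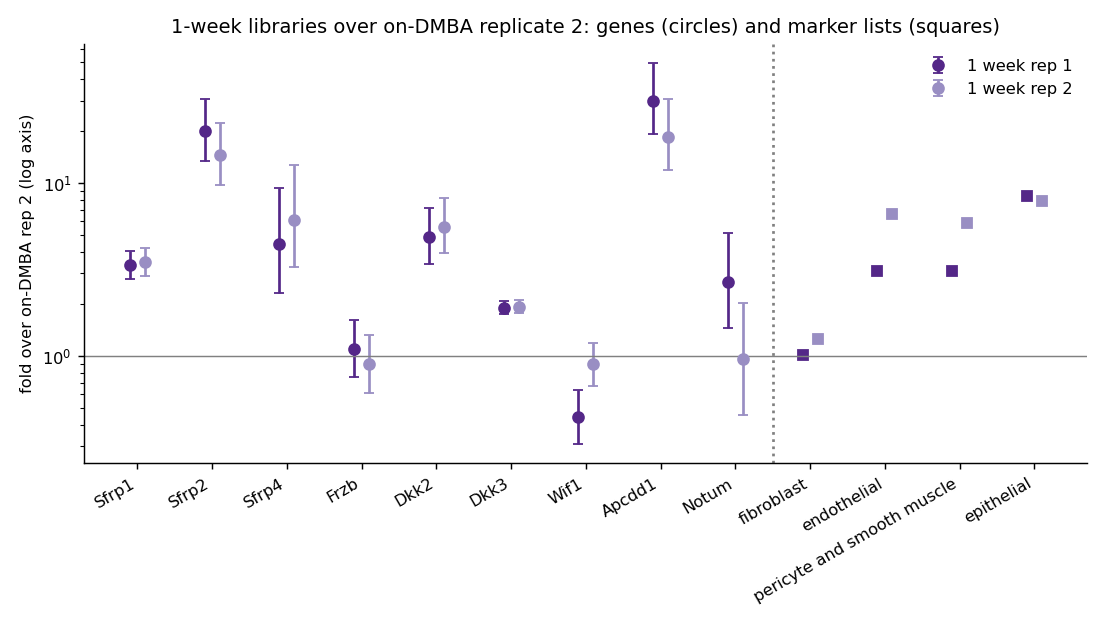
Fold of each 1-week library over on-DMBA replicate 2 (log axis) for the 9 genes (circles, bars for the 95% interval from exact binomial limits on the reads) and for the geometric means of 4 marker lists (squares, no interval). Sfrp2 and Apcdd1 lie at 14.5-fold or more, above the epithelial list (8.44 and 7.93), while Frzb lies near 1, as does the fibroblast list (1.01 and 1.26).

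Per length of their exons, Dkk3 was the most abundant of the 9 transcripts in every library, and Sfrp2 ranked higher at 1 week than on DMBA. On the scale of scaled CPM per kb of merged exons in GENCODE M21, Dkk3 was at 21.7 and 41.1 under DMBA, against 78.2 and 79.1 at 1 week. Sfrp2 was at 0.386 and 2.17 under DMBA, against 43.3 and 31.3 at 1 week, which is rank 6 and rank 5 under DMBA and rank 2 in both 1-week libraries. Its share of the summed level of the 9 genes per kb was 0.842% and 3.47% on DMBA and 25.7% and 19.8% at 1 week. Sfrp1 held rank 2 and rank 3 on DMBA and rank 3 in both 1-week libraries, where it was at 18.8 and 19.6 per kb. Below these at 1 week, Dkk2 (8.52 and 9.78 per kb) and Apcdd1 (8.38 and 5.16) lay close to each other in replicate 1 only. Apcdd1 has 12884 bases of merged exons, against 3705 for Dkk2, which lowers its place on this scale. Before that division its 1-week levels were 108 and 66.5 scaled CPM, against 31.6 and 36.2 for Dkk2. Wif1 (3.16 and 6.35), Frzb (3.23 and 2.64), Sfrp4 (2.09 and 2.9) and Notum (2.99 and 1.07) had ranges that overlapped with at least 1 neighbour in the order. The summed level of the 9 genes per kb was 45.9 and 62.5 under DMBA, against 169 and 158 at 1 week.

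The genes also differed in which other genes shared their pattern over the 4 libraries, measured as the Euclidean distance between log2 profiles centred on their means, over genes with a mean level of at least 5. The nearest gene to Sfrp2 was Tmem132c at a distance of 0.60 (0.356 and 3.41 under DMBA, 64.7 and 29.4 at 1 week), and 0 genes lay within 0.5. The nearest to Apcdd1 was the anchoring fibril collagen gene Col7a1 at 1.07 (969.8 and 270.5 on DMBA, 4364 and 1666 at 1 week), again with 0 genes within 0.5. The patterns of the other genes were common: 18 genes lay within 0.5 of Dkk2 (nearest Bcat1, 0.17), 22 of Sfrp4 (nearest Emid1, 0.18), 30 of Sfrp1 (Csrp1, 0.19), 44 of Frzb (H2-K2, 0.10), 47 of Notum (Nat6, 0.14), 83 of Dkk3 (the cytokine gene Tnf, 0.08) and 85 of Wif1 (the acid ceramidase gene Asah1, 0.05). With 4 libraries such distances are a description.

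The rest of the pathway was read from lists that, like the 9 genes, were chosen with earlier results of these data known. In these lists 0 genes passed in limma with all 4 libraries. Of 12 tested other secreted modulators, 3 were higher and 1 lower at 1 week without overlap, with a median log2 difference of 0.65. The shares over all genes tested were 14.0% higher and 9.14% lower. The Dickkopf-like neural guidance protein gene Draxin was at 0.594 and 6.46 under DMBA, against 52.5 and 32.8 at 1 week (log2 difference 3.93, SE 1.04, unadjusted p = 0.0118). Rspo3, which encodes an R-spondin that strengthens Wnt signals, was at 0.119 and 0.538 under DMBA, against 7.03 and 8.27 at 1 week (log2 difference 3.34, SE 0.73). Its on-DMBA values were not above the floor of 3 reads per library (0.356 and 0.538 scaled CPM). Rspo1 was the third higher gene (log2 difference 1.18). Rspo3 and Rspo1 reached the filter of 1 scaled CPM only in the 1-week libraries, which fixed their direction. The glypican gene Gpc4 was the lower one (-0.89). The best known antagonist of the Dickkopf family, Dkk1, was below the filter at 0.356 and 0.718 under DMBA, against 1.25 and 0.428 at 1 week. Sostdc1, an epithelial Wnt and BMP antagonist, was high in on-DMBA replicate 1 alone (184, against 1.44 in on-DMBA replicate 2 and 2.66 and 2.42 at 1 week).

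Kremen1, a coreceptor through which Dickkopf proteins act on LRP6, was at 110.0 and 73.9 under DMBA, against 179 and 161 at 1 week (log2 difference 0.91, SE 0.51). It was the only 1 of 4 genes of Wnt secretion and Dickkopf coreceptors that was higher without overlap. Of the 18 tested Wnt ligands, 4 were higher (Wnt10b, Wnt2b, Wnt11 and Wnt5b, with log2 differences of 4.59, 2.75, 1.70 and 1.21) and 1 was lower (Wnt6, -0.52). Of 18 receptor genes, 2 were higher (Lgr5 and Fzd1, 1.26 and 0.81) and 2 lower (Fzd3 and Lrp5, -0.95 and -0.68). Of 12 target and feedback genes, 1 was higher (Nkd1, 2.07) and 1 lower (Ccnd1, -1.39). Over all genes tested, 14.0% were higher and 9.14% lower without overlap, and these counts were not tested against those shares. Axin2 and Lef1, which Wnt signalling induces in many tissues, had log2 differences of 0.75 (SE 0.80) and 0.78 (SE 0.86) with overlapping groups. The median log2 difference was 0.18 for the ligands, 0.02 for the receptors and -0.22 for the target and feedback genes, beside -0.02 over all genes tested and 2.00 for the 9 regulators. These 3 medians moved with the on-DMBA libraries: they were 0.74, 0.10 and 0.65 without on-DMBA replicate 1, and -0.09, -0.21 and -1.34 when on-DMBA replicate 2 was left out. The median of the other secreted modulators was 0.13 and 1.67 in the same fits.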

How the data were processed

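RNA from sorted tumour cells of 4 mice (2 per group) was depleted of ribosomal RNA and sequenced with a strand-keeping dUTP protocol, per the labels' protocols. The submitters' processing notes list the mm9 build, edgeR 3.2.3, HTSeq, TopHat2 2.1 and CASAVA 1.8.2, with no role or order. For the annotation and strand setting, nothing is given in the sources used here. The authors deposited for every gene a normalised signal under the name CPM. As its column totals range from 867697 to 1149287, it is named scaled CPM here. The fits had been planned for CPM and were kept. Reads were recovered from the step between values, of which 100% came out whole (tolerance 0.01 reads).

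The 15419 genes that reached 1 scaled CPM in at least 2 libraries were tested, all 9 Wnt regulators among them. In R 4.3.3, log2(scaled CPM + 0.5) was fitted with limma 3.58.1 and a moderated variance with a trend. P-values are two-sided, adjusted by Benjamini-Hochberg over every tested gene, and passed under 0.05. On recovered reads edgeR 4.0.16 (quasi-likelihood) called 0 genes (1.49% higher at an unadjusted p under 0.05) and DESeq2 1.42.0 called 16 higher and 3 lower. The other alternatives were pseudocounts, filters, scalings, eBayes without the trend, a replicate block and leaving out each library. Tests were checked on simulated counts. The 9 genes and all lists were chosen with earlier results of these data known. Genes named beside the 9 were, per list, up to 4 whose groups do not overlap, by smallest p, with Axin2 and Lef1, the most abundant marker of each list and the nearest gene by profile. Dkk1, Sostdc1, Cdh3, Epcam, Itga6, Dpt, Mfap5, Crabp1 and Fgf10 were chosen after their values were seen. Draxin, Trabd2b and Adgre1 were matched by older symbols. Of the remaining marker lists, the summed level of the dermal papilla markers (5 genes, led by Crabp1) was 2.73 and 25.3 under DMBA, against 535 and 289.7 at 1 week, and of the adipocyte markers (4, led by Fabp4) 679 and 40.7, then 45.9 and 227. A further marker list is not reported here. Each library is a separate mouse, and p-values measure the spread between these 4 libraries.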

Additional observations from a re-analysis of the deposited data

How the results depend on the processing

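Across 14 alternatives the log2 difference of Sfrp2, Sfrp4, Dkk2, Dkk3 and Apcdd1 stayed above 0. As their groups do not overlap, leaving out a library or changing the pseudocount, filter, trend or block could not turn these signs. Only the scalings, edgeR and DESeq2 could have done so. The log2 difference of Sfrp1 did not turn, but fell to 0.01 without on-DMBA replicate 2. The differences of Notum, Frzb and Wif1 turned: leaving out 1 library gave -0.48 to 0.85 for Notum, -0.01 to 4.01 for Frzb and -0.64 to 1.99 for Wif1, and quantile normalization, which moved the median of all genes to -0.15, gave -0.16 for Notum. The number of genes called was 0 in limma with all 4 libraries and no block, 0 to 3761 with 1 library left out (516 without on-DMBA replicate 1, 3761 without on-DMBA replicate 2, 0 without either 1-week library), and 19 in DESeq2. The replicate block called 288 genes and, of the 9, Sfrp2 (adjusted p = 0.000307), Apcdd1 (0.0202) and Dkk2 (0.0383). The numbers mark different mice, and deviations of same-numbered libraries correlated at 0.02. With 2 libraries per group this value is the same for both numbers by construction. The median of the 9 genes was 2.72 with a pseudocount of 0.1 and 1.31 in DESeq2. The cause of these shifts was not tested, except that a smaller pseudocount widens the differences of low genes by construction. The number of the 9 that were higher without overlap was 5 with the other filters and median ratio scaling, and 6 with quantile normalization. With 1 library left out it was 6 or 7 (6 without on-DMBA replicate 1), but fewer libraries make non-overlap easier by construction. The share over all genes was not computed for these alternatives, so the higher counts do not bear on the 9 genes. The median log2 difference relative to the fibroblast markers was -1.75 with all libraries, and -5.05 to 1.58 with 1 library left out, a range chosen after seeing the data: 1.58 without on-DMBA replicate 1, where their summed level was 162, and -5.05 without on-DMBA replicate 2. Depth limits Sfrp4 and Frzb in on-DMBA replicate 1, at 1 read each.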
